A study of Mus musculus with 6 samples.

Results

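The genes of the Myc and Max network were examined for intervals of the Tex10 protein and of trimethylated lysine 4 of histone H3 (H3K4me3) in mouse PGCLCs (primordial germ cell-like cells). The 9 genes, Myc, Mycn, Mycl, Max, Mga, Mxd1, Mxd3, Mnt and Mlx, were chosen by name from 21853 protein-coding genes of GENCODE M21 (GRCm38), and all 9 were found. For each gene, intervals within 1 kb of a transcription start site (TSS) and intervals in the gene body plus 10 kb on each side were listed. The cells were taken at day 2, carried the 129Sv/J background and were untreated. In these cells the C terminus of Tex10 was fused to an HA tag, and the tag was precipitated to locate Tex10. There were 2 samples for the HA tag, 2 for H3K4me3 and 2 of input DNA, and the deposited intervals form 1 list per antibody. The lists hold positions only, so no value below has a replicate error and no test compares samples. The depth of the samples is unknown.

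PGCLCs are cultured cells that model the embryonic precursors of sperm and eggs. Tex10 is a chromatin-associated protein that also belongs to a complex acting in ribosome assembly, and H3K4me3 is a histone mark found at the promoters of active or poised genes. MYC proteins are transcription factors with a basic helix-loop-helix leucine zipper domain. They bind the E-box CACGTG only as dimers with MAX and favour growth, ribosome production and proliferation. MXD proteins, MNT and MGA also dimerise with MAX and bind the same site, where MXD proteins and MNT recruit SIN3 corepressors. MGA is the scaffold of a variant Polycomb complex, PRC1.6, that keeps germ cell genes silent in pluripotent cells. MLX is a MAX-like protein that pairs with MondoA, ChREBP, MNT and some MXD proteins.

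HA-Tex10 was mapped within 1 kb of a TSS at 3 of the 9 genes, Mga, Mxd3 and Mnt (33.3%). Among all protein-coding genes the share was 8.66%. An H3K4me3 interval lay within 1 kb of a TSS at 8 of the 9 genes, against 60.9% of all coding genes. Mxd1 was the member without one. All 3 genes with HA-Tex10 were among the 8 with H3K4me3 (37.5% of them), and of all coding genes with H3K4me3 at a TSS 13.9% had HA-Tex10. Each of the 3 encodes a MAX partner known as a repressor, as do Mxd1 and its relative Mxi1, which had none. The genes for the MYC proteins, for MAX itself and for MLX also had none there. These counts describe 9 genes chosen by name with earlier results of these data known, and no test of the list was run. Where no interval is listed, occupancy was not detectable with these libraries, which does not show that the protein is absent.

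**Figure D1:**
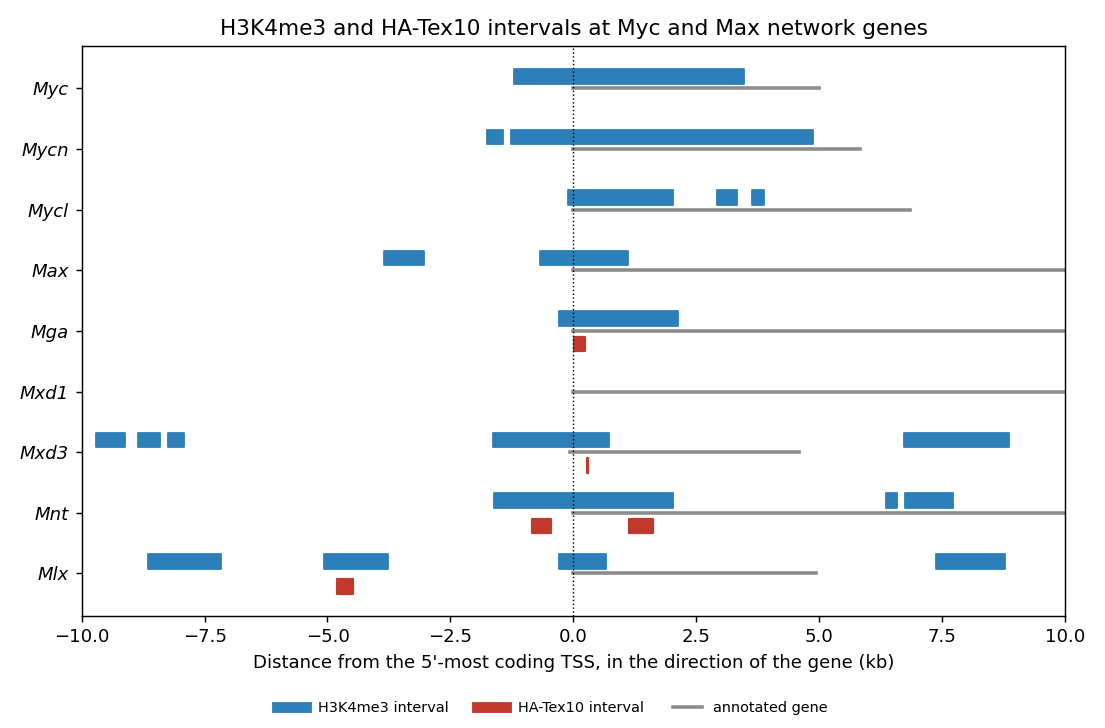
Map of the 9 genes. The x axis is the distance in kb from the 5'-most coding TSS, in the direction of the gene, cut at 10 kb on each side; blue bars are H3K4me3 intervals, red bars HA-Tex10 intervals and grey lines the annotated genes. HA-Tex10 bars appear at Mga, Mxd3, Mnt (2 bars) and upstream of Mlx, each below an H3K4me3 bar, and Mxd1 has neither kind.

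The sequences under the HA-Tex10 intervals of Mga, Mxd3 and Mnt are shown because they are the places where the tagged protein was mapped at the network. They are read 5′ to 3′ on the strand of the gene from the GRCm38.p6 genome of RefSeq, without transcript leader sequence. Capitals mark any of 7 motifs searched on both strands. The motifs were the E-box CACGTG, the GC box GGGCGG, the CCAAT box CCAAT, the TATA box TATAAA, the palindromic NRF1 site, the octamer ATGCAAAT and an E2F site TTTCGCGC. A match is a description of letters and not a binding site.
Mga, part of the interval in the first intron, plus strand, chr2:119897347-119897471: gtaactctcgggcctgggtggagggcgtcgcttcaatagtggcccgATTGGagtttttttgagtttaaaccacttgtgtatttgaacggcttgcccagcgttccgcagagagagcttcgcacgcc
Mxd3, whole interval, minus strand, chr13:55329466-55329490: gcagccgggcagggagtgactgggg
Mnt upstream interval, central 300 bp, plus strand, chr11:74830115-74830414: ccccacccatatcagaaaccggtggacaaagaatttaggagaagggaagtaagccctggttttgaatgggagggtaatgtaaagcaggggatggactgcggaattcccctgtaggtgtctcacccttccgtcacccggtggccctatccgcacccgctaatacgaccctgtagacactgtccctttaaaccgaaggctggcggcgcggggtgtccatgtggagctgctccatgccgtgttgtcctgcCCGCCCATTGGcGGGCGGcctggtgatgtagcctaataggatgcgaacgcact
Mnt intronic interval, central 300 bp, plus strand, chr11:74832147-74832446: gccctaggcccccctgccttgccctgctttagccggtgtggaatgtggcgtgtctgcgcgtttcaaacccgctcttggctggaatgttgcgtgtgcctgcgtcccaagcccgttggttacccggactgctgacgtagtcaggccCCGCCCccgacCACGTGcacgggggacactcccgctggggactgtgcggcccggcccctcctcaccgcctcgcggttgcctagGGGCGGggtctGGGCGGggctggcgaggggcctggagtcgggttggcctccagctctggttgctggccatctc

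The interval at Mga begins at the start of the gene. Mga (ENSMUSG00000033943.15) spans chr2:119897228-119969581 (plus strand). Its HA-Tex10 interval, chr2:119897231-119897471, is 241 bp wide and begins 3 bp downstream of the 5'-most TSS. It covers a further coding TSS of the gene, takes in 116 bp of the first exon, which is untranslated, and continues into the first intron. The only searched motif in it was 1 CCAAT box, in the intronic part shown above. Its width is close to the median of 233 bp (interquartile range 157 to 332 bp) among the 1773 intervals of the HA-Tex10 list at a coding TSS. Of those 1773 intervals, 44.2% covered a TSS, 31% lay upstream of the nearest TSS and 24.8% downstream.

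Mnt had 2 HA-Tex10 intervals, on either side of its start. Mnt (ENSMUSG00000000282.12), the gene of a MAX partner that opposes MYC in most dividing cells, spans chr11:74830920-74845725 (plus strand). The first interval, chr11:74830070-74830459, is 390 bp wide and ends 461 bp upstream of the TSS, outside the gene. The second, chr11:74832046-74832546, is 501 bp wide and begins 1126 bp downstream of the nearest coding TSS, in an intron. It thus fell just outside the 1 kb window, and the first lay inside it. The upstream interval held 2 GC boxes and 1 CCAAT box. The intronic interval held 1 E-box, 3 GC boxes and 1 CCAAT box, the last outside the 300 bp shown. Shares of these motifs over all HA-Tex10 intervals are not given here. Both Mnt intervals were wide beside the HA-Tex10 intervals at a coding TSS. Of these, 83.2% were narrower than the first and 92% narrower than the second, which is itself not among them. Of the 1893 coding genes with HA-Tex10 at a TSS, 25.3% held 2 or more HA-Tex10 intervals in the body plus 10 kb.

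The interval at Mxd3 is the narrowest of the set. Mxd3 (ENSMUSG00000021485.14), a gene of the MXD family of MAX partners, spans chr13:55325168-55329823 (minus strand). Its HA-Tex10 interval, chr13:55329466-55329490, spans 25 bp in the first intron, 268 bp downstream of the only coding TSS and 114 bp from a TSS of a transcript of Mxd3 that is not annotated as coding. It held none of the 7 motifs. Only 2.88% of HA-Tex10 intervals at a coding TSS were narrower, and 57 of the 1773 were 25 bp wide or less. When only intervals wider than the median of their list were kept, Mxd3 lost its interval and the count fell to 2 of 9 genes, while the share of all coding genes fell to 4.61%.

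Over the gene body plus 10 kb, Mlx was added, so 4 of the 9 genes (44.4%) had an HA-Tex10 interval, against 16.9% of all coding genes. Mlx (ENSMUSG00000017801.15) spans chr11:101087277-101092207 (plus strand). The HA-Tex10 interval near it, chr11:101082474-101082794, is 321 bp wide and lies 4483 bp upstream of the nearest Mlx TSS. It covers a TSS of Coasy, which encodes the enzyme that completes coenzyme A synthesis, so it lies at the promoter of the neighbouring gene. All members but Mga, Max and Mxd1 are shorter than the median coding gene. Their lengths run from 4656 bp at Mxd3 to 72354 bp at Mga, compared with a median of 17380 bp over coding genes. A longer gene offers more room for an interval.

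All 5 HA-Tex10 intervals of the set lay wholly inside an H3K4me3 interval. Over all 1773 HA-Tex10 intervals at a coding TSS, 90.3% overlapped H3K4me3 and 71.5% lay wholly inside it. None of the 5 at the members was mostly made of repeated words. The share of their 32-base words found more than once in the genome was 0% at Mga, Mxd3 and both Mnt intervals and 0.345% at the interval near Mlx. At Mxd3 this was read over 100 bp around the interval, since the interval itself is shorter than a word. Soft-masked repeat bases made up 4.19% of the intronic Mnt interval and 9.03% of the one near Mlx. In the whole HA-Tex10 list, 39.7% of intervals were mostly made of repeated words.

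The 3 MYC genes lay farther from HA-Tex10 than the median coding gene, Mycl least so. Myc (ENSMUSG00000022346.15) spans chr15:61985391-61990374 (plus strand), and its 5'-most TSS was 707 kb from the nearest interval. Mycn (ENSMUSG00000037169.15), the MYC gene prominent in embryonic progenitors, spans chr12:12936093-12941914 (minus strand), 1056 kb from the nearest interval. Mycl (ENSMUSG00000028654.13) spans chr4:122995652-123002485 (plus strand), 282 kb from the nearest interval. Max (ENSMUSG00000059436.13), the common partner, spans chr12:76937269-76962201 (minus strand), 415 kb from the nearest interval. Mxd1 was farthest, at 1106 kb. These 5 genes were farther from HA-Tex10 than the median coding gene, for which the distance was 168 kb. Of all coding genes, 61.6% lay closer than Mycl, 70.2% closer than Max, 81.5% closer than Myc, 88.7% closer than Mycn and 89.5% closer than Mxd1.

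**Figure D2:**
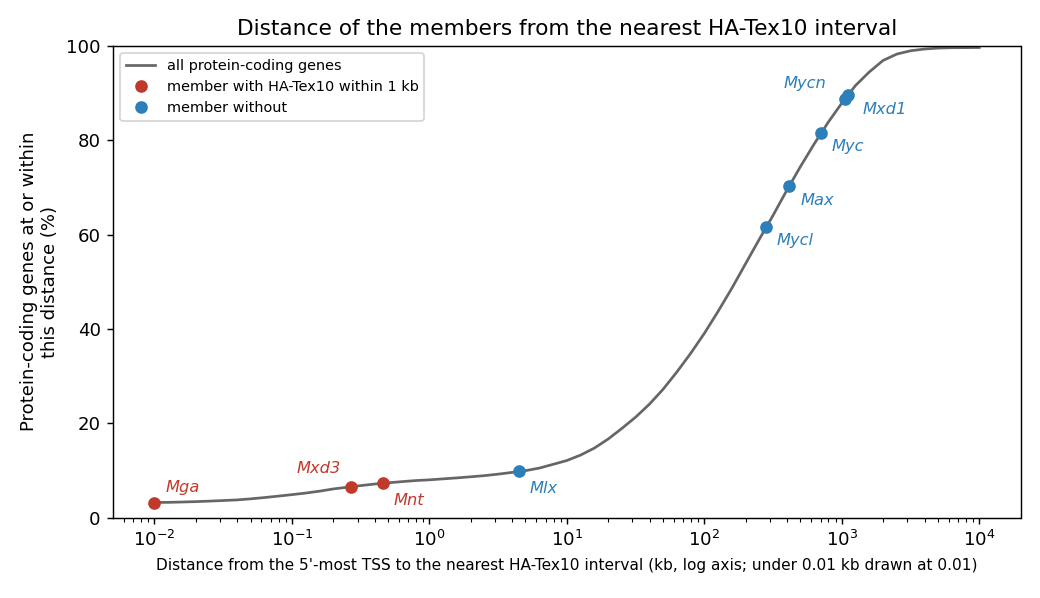
Distance from the 5'-most TSS to the nearest HA-Tex10 interval. The x axis is the distance in kb on a log axis, the y axis the percent of protein-coding genes at or within it; the grey line is all coding genes, red points are members with HA-Tex10 within 1 kb of a TSS and blue points are the other members. Mga, Mxd3 and Mnt sit at the left end, Mlx follows at 4.48 kb, and the other 5 members lie at 282 kb or more.

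H3K4me3 at Myc and Mycn was among the widest of all marked genes. The width of the widest H3K4me3 interval within 1 kb of a TSS was 6139 bp at Mycn, 4677 bp at Myc, 3641 bp at Mnt, 2421 bp at Mga, 2350 bp at Mxd3, 2131 bp at Mycl, 1795 bp at Max and 968 bp at Mlx. With neighbours within 1 kb merged, Mycl reached 3979 bp and passed Mnt in this order. The median over the 8 marked members was 2386 bp, beside 1342 bp (interquartile range 861 to 1967 bp) over all 13306 marked coding genes. Of the 8 members, 7 were above the median of all marked genes and 6 above their upper quartile. Of all marked genes, 99.8% had a narrower interval than Mycn, 99.1% narrower than Myc and 97.3% narrower than Mnt. The Mlx interval was wider than 30.5% of them. Each gene has 1 value, so no spread tells whether neighbouring widths in this order, such as those of Mga and Mxd3, differ.

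**Figure D3:**
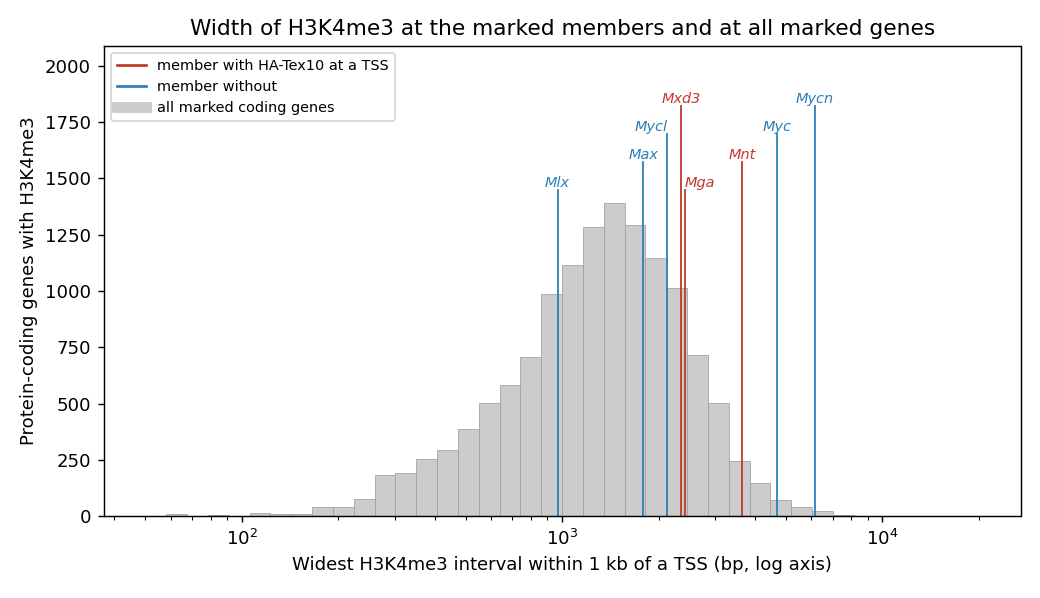
Width of H3K4me3 at the members. The x axis is the widest H3K4me3 interval within 1 kb of a TSS in bp on a log axis, the grey bars count all protein-coding genes with H3K4me3, and the lines mark the 8 members, in red with HA-Tex10 at a TSS and in blue without. Mycn at 6139 bp, Myc at 4677 bp and Mnt at 3641 bp lie in the right tail, and Mlx at 968 bp lies below the centre.

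Myc and Mycn had wide H3K4me3 and no HA-Tex10 at a TSS. Of the 29 other coding genes with an interval at least as wide as that of Mycn, 9 (31%) had HA-Tex10 within 1 kb of a TSS. Of the 122 others at least as wide as Myc, 38 (31.1%) did, and of the 361 others at least as wide as Mnt, 106 (29.4%) did. These shares were above the 13.9% among all coding genes with H3K4me3 at a TSS. Among the wide genes, Mnt belonged to the minority with HA-Tex10, while Myc and Mycn belonged to the larger group without it.

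The H3K4me3 intervals differed in how they sat on the genes. At Myc the interval, chr15:61984173-61988849, ran from 1218 bp upstream to 3458 bp downstream of the 5'-most TSS and covered most of the gene. At Mycn the interval, chr12:12937042-12943180, ran from 1266 bp upstream to 4872 bp downstream, again over most of the gene, and a further interval of 315 bp followed 1441 bp upstream of the TSS. At Mycl the main interval began only 108 bp upstream, reached 2022 bp downstream and was followed in the gene by 2 narrow intervals of 405 and 235 bp. At Mga it ran from 298 bp upstream to 2122 bp downstream, and at Max from 683 bp upstream to 1111 bp downstream. The Mxd3 interval extended mostly away from the gene, from 1627 bp upstream to 722 bp downstream. At Mnt it ran from 1611 bp upstream to 2029 bp downstream and so held both HA-Tex10 intervals. Mnt also had intervals of 224 and 993 bp at its second coding TSS. That made 3 within 1 kb of a TSS, a number reached by 3.37% of marked coding genes.

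In the gene bodies plus 10 kb there were 23 H3K4me3 intervals in all, 10 within 1 kb of a member's TSS and 13 farther away. In this window, too, 8 of the 9 members had one, against 70.7% of all coding genes. The 13 had a median width of 456 bp, and the widest of them, 2129 bp, lay beyond the end of Mxd3, within 1 kb of start sites of Prelid1 and Rab24. Others lay as close to starts of neighbouring genes, with Coasy, Hsd17b1 and Psmc3ip around Mlx and Mapkbp1 beyond Mga.

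Mxd1 was the member with neither kind of interval. Mxd1 (ENSMUSG00000001156.9), a MAX partner induced when many cell types leave the cell cycle and differentiate, spans chr6:86647042-86669161 (minus strand). The nearest H3K4me3 interval was 14.7 kb from its 5'-most TSS. The sequence around this TSS is rich in G and C, at 72.7% over 1000 bp, and 97.8% of coding genes had a lower value. Its ratio of observed to expected CpG was 0.835, above 83.9% of coding genes. Of the 476 other coding genes with at least its GC content, 473 (99.4%) had H3K4me3 within 1 kb of a TSS and 3 did not. Of the 3508 others with at least its CpG ratio, 99.1% had H3K4me3. None of the 32-base words within 500 bp of the Mxd1 TSS occurred again in the genome. In bulk samples, a mark in few cells and a weak mark in all cells cannot be told apart.

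The remaining members had GC contents from 57.3% at Mga to 69.2% at Mxd3 over the same window, with 54.9% as the median of coding genes and 59.3% as that of marked coding genes. Their CpG ratios ran from 0.673 at Mycn to 0.876 at Mga, with medians of 0.561 and 0.731. Mga thus combined a GC content below the median of marked genes with the highest CpG ratio of the 8 members measured. Myc was not matched in the promoter table and was left out of these sequence values.

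The E-box was searched in the promoters because the proteins of this family bind it. In windows from 250 bp before to 50 bp after the RefSeq gene start, 3 of the 8 matched members, Max, Mnt and Mlx, held CACGTG. Of all 32851 promoters of the same length in the table, 7.15% did. Within 500 bp on either side of the 5'-most TSS, Mxd3 was added, giving 4 of 8 against 17% of coding genes. The GC box was present in 6 of the 8 promoters, against 35.7% of all. The CCAAT box was present in 2 (Mxd1 and Mlx) against 37.4%, the TATA box in 1 (Mycl) against 13.6%, and the E2F site in 1 (Mycn) against 0.323%. The NRF1 site and the octamer were in none of the 8, against 0.971% and 1.74%. GC boxes can overlap one another, as they do at Mxd3. All 8 members had a GC content around the TSS above the 54.9% median of coding genes. The shares of all promoters were not matched for GC content.

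The promoter stretches below are shown for the members that differ most in the 2 marks. Mga has HA-Tex10 at its start, Mnt has it on both sides, Mlx has an E-box and no HA-Tex10 at its own promoter, Mycn has the widest H3K4me3 and Mxd1 has none. They come from RefSeq (GRCm38.p6), are read 5′ to 3′ on the strand of the gene, end at or before the first annotated start, and use capitals as above.
Mga promoter, plus strand, chr2:119896978-119897227: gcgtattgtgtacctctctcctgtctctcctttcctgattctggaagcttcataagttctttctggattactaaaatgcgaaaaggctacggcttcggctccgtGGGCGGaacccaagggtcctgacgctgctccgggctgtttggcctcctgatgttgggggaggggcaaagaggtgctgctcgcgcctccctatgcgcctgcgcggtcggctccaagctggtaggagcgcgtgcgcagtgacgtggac
Mnt promoter, plus strand, chr11:74830674-74830919: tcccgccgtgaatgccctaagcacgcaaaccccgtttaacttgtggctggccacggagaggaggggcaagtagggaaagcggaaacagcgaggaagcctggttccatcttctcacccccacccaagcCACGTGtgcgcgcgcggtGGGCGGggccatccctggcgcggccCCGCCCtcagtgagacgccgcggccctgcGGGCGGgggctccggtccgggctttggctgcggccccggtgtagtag
Mlx promoter, plus strand, chr11:101087040-101087276: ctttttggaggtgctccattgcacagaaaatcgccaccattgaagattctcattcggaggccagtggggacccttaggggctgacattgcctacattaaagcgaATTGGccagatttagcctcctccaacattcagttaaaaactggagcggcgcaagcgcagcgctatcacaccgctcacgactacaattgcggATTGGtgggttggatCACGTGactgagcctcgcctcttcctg
Mycn promoter, minus strand, chr12:12941915-12942086: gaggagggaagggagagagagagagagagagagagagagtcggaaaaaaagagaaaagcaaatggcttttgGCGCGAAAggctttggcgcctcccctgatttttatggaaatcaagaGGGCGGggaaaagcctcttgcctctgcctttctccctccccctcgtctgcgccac
Mxd1 promoter, minus strand, chr6:86669162-86669409: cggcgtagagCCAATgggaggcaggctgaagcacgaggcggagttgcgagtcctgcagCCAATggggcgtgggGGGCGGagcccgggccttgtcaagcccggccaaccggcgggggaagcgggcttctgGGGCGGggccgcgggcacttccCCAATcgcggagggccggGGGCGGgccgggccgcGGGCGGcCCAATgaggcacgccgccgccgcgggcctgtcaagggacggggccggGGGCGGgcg

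Both the Mnt and the Mlx stretch carry 1 E-box, and they differ in base content, since GC makes up 69.5% of the first and 52.3% of the second. The Mxd1 stretch reaches 78.2% GC, with 5 GC boxes and 4 CCAAT boxes. The Mycn stretch has 1 E2F site and 1 GC box. The Mga stretch has 1 GC box and none of the other motifs.

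The other genes of the family were read in the same way. Mxi1 and Mxd4 encode further MXD proteins, Mlxip encodes MondoA and Mlxipl encodes ChREBP, the glucose-sensing partners of MLX. All 4 had H3K4me3 within 1 kb of a TSS, and 1 of the 4, Mxd4, had HA-Tex10. The Mxd4 interval, chr5:34187949-34188241, is 293 bp wide, lies 229 bp upstream of the nearest coding TSS and held 3 CCAAT boxes. Of its bases, 180 overlapped the H3K4me3 interval of 1489 bp. A second HA-Tex10 interval of 280 bp, chr5:34169532-34169811, lay in the body plus 10 kb of Mxd4. It was within 1 kb of start sites of the neighbouring genes Haus3 and Poln. Mxi1, Mlxip and Mlxipl had no HA-Tex10 in the body plus 10 kb. Mxi1 had H3K4me3 of 4256 bp, wider than that of 98.6% of marked genes, with its nearest HA-Tex10 interval 26.8 kb away. Mlxipl had the narrowest mark of the family, at most 475 bp wide.

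Partners and targets of the network were taken from 4 further lists, and each of their genes had H3K4me3 within 1 kb of a TSS. Of 20 genes for MYC cofactors and turnover, 8 (40%) had HA-Tex10 at a TSS. They were Ep400, Kat5, Ruvbl1 and Ruvbl2, whose products belong to the TIP60 acetyltransferase complex, Ep300, a further acetyltransferase, Wdr5 and Hcfc1, cofactors that contact MYC, and Skp2, a ubiquitin ligase subunit that acts on MYC. Trrap, Dmap1, Actl6a and Brd8, which also encode subunits of the TIP60 complex, had none. Of 11 genes for corepressors of MXD proteins and MNT, 3 (27.3%) did, namely Sin3b, Sap30 and Rbbp4. Sin3b and Sap30 lie on chromosome 8, where 41.2% of 741 marked genes had HA-Tex10. In an alternative chosen after seeing the data, with chromosome 8 left out, 1 of 9 genes of this list had it, beside 12.3% of marked genes. Of 11 genes for partners of MGA in PRC1.6, 1 did (9.09%), Cbx3, which encodes a heterochromatin protein. Of 20 textbook MYC targets, 5 (25%) did. These were Cdk4, a cell cycle kinase, and Ncl, Npm1, Nop56 and Nop16, which act in the nucleolus. Fbl, on the same list and also encoding a nucleolar protein, had none. The share of all marked coding genes was 13.9%. The lists were chosen with earlier results of these data known, and no test was run on them.

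**Figure D4:**
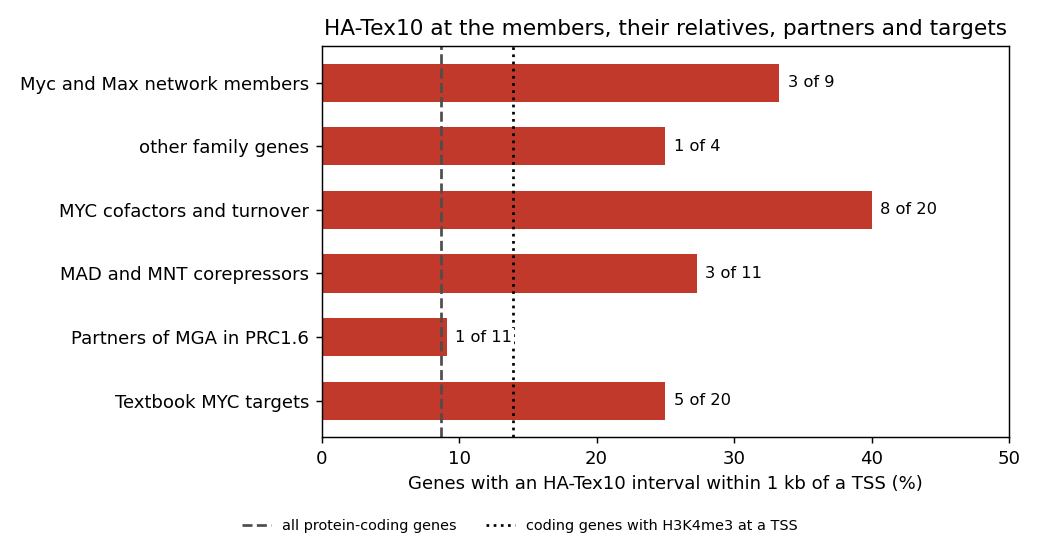
Share of genes with HA-Tex10 at a TSS (within 1 kb). Bars give the percent of the genes of each list, with the count beside the bar; the dashed line is the share of all protein-coding genes (8.66%) and the dotted line that of coding genes with H3K4me3 at a TSS (13.9%). The bar of MYC cofactors reaches 40%, that of the 9 members 33.3%, and that of the MGA partners lies between the lines.

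Lying within 1 kb of a TSS was how these intervals were chosen. Of all HA-Tex10 intervals at a coding TSS, counted by the nearest TSS of any coding gene, 44.2% covered one. The 17 partner and target genes with HA-Tex10 were counted as genes, each by its own coding TSS, so the measure differs. The interval covered such a TSS at 9 of them (52.9%). Those of Ep400 (371 bp), Ruvbl1 (366 bp), Ruvbl2 (262 bp), Ep300 (290 bp), Sin3b (563 bp), Sap30 (673 bp), Rbbp4 (367 bp), Cdk4 (556 bp) and Npm1 (419 bp) did so. Those of Cbx3, Ncl, Nop16, Wdr5, Nop56, Skp2 and Hcfc1 lay 17, 67, 84, 75, 133, 145 and 642 bp upstream of one. The Kat5 interval was 20 bp wide and lay 105 bp downstream, so that Kat5 resembled Mxd3 in both width and side.

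Genes whose start region looked most like that of a member were found by the cosine similarity of coverage by both lists in bins of 100 bp, with 80 values per gene over the 2 lists. The bins ran from 2 kb before to 2 kb after the 5'-most TSS. For Mga these were Tkt (0.978), Kcnk5 (0.973) and Ddx39 (0.973), and for Mnt they were Tssk6 (0.956), Jade2 (0.937) and Spaca6 (0.923). All 6 had HA-Tex10 in that window. HA-Tex10 coverage was part of the measure, so this follows largely from how the genes were picked. Ddx39 and Tssk6 lie on chromosome 8, where 41.2% of marked genes had HA-Tex10 at a TSS. For Mxd3 the most alike genes were Kin (0.998), Chchd1 (0.998) and Maf1 (0.997). None of them had HA-Tex10 in the window, since an interval of 25 bp adds little to this measure.

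The cell type was checked by H3K4me3 within 1 kb of a TSS at marker genes. It was present at 5 of 7 germ cell precursor genes, Prdm1, Prdm14, Tfap2c, Dnd1 and Kit, and was not detected at Nanos3 and Dppa3. This share (71.4%) is near the 60.9% of all coding genes. All 7 pluripotency or epiblast genes had it, from 461 bp wide at T to 7855 bp at Otx2. It was found at 0 of 3 liver, 0 of 3 heart muscle and 0 of 3 blood genes, 1 of 3 neuron genes and 2 of 4 fibroblast genes. The neuron gene was Rbfox3 (1043 bp). The fibroblast genes were Thy1 (304 bp) and Twist2 (447 bp), and Col1a1 and Col1a2 had none. The germ cell genes ranged from 812 bp at Tfap2c to 2101 bp at Kit. The part of other cell types in the widths above was not tested.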

How the data were processed

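ChIP-seq of day 2 PGCLCs was deposited by the authors as interval lists for the whole series, with start and end in bp and no scores. Per the submitters' processing notes, the build was mm10 and the tools included Bowtie2 2.3.4.3, SAMtools 1.9, MACS2 2.1.2 and HOMER; thresholds, the use of input and the handling of replicates are not given in the sources used here. The lists held 4331 HA-Tex10 and 29072 H3K4me3 intervals, of which 4238 and 29002 lay on the 21 assembled chromosomes, with 0 past a GRCm38 chromosome end. A further deposited list, in part the HA-Tex10 list again, was not used.

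TSS were starts of coding transcripts of coding genes in GENCODE M21. An interval counted within 1 kb, and an overlap was at least 1 bp. Shares of all genes stand beside the members' counts, and no test was run, as there are no values per sample. Genes named were the members, their relatives, listed partners with HA-Tex10 at a TSS, genes at member intervals and the 3 most alike. Members and lists were chosen with earlier results of these data known. Interval search was tested on simulated data. Python 3.11.15, numpy 2.4.6 and pysam 0.24.0 were used.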

Additional observations from a re-analysis of the deposited data

How the results depend on the processing

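No paired analysis was possible because the lists do not separate the replicates, so none could be left out either. The members with HA-Tex10 within 1 kb of a TSS numbered 2 (wider intervals only, without Mxd3) to 4 (5 kb window, with Mlx added) and those with H3K4me3 8 in every setting tried. The HA-Tex10 share of coding genes was 8.08%, 9.51% and 10.6% with windows of 500 bp, 2.5 kb and 5 kb, 8% with the 5'-most TSS only, 4.61% with intervals wider than their list's median, 7.6% without chromosome 8 and 8.19% without mostly repeated intervals. The H3K4me3 share was 62.2% and 63.9% with 2.5 kb and 5 kb, 61.6% with all transcripts, 58.1% with the 5'-most TSS, 49.8% with wider intervals and 59.5% by interval centres. The HA-Tex10 share of marked genes was 13.2%, 14.9% and 16.1% with 500 bp, 2.5 kb and 5 kb, 8.57% with wider intervals, 12.3% without chromosome 8 and 13.2% without mostly repeated intervals. Asking for 50% overlap lowered the share of HA-Tex10 intervals at a TSS that met H3K4me3 to 84.4%. Merging H3K4me3 neighbours within 1 kb raised the members' median width to 3031 bp, through Mycl (2131 to 3979 bp). Mycn, already the widest, reached 6628 bp. Merged widths are given for the members only, so 3031 bp is not comparable with the unmerged median of 1342 bp over all marked genes. The depth is unknown, so an undetected interval says nothing about absence.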

Other observations

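Within 100 kb of the 5'-most TSS of a member there were 9 HA-Tex10 intervals, all of them overlapping H3K4me3. Besides the 5 described in the report, they lay at Tyro3, 94.0 kb upstream of Mga, at Srr, 94.5 kb downstream of Mnt, and at Retreg3 and near Plekhh3, 32.6 and 84.7 kb downstream of Mlx. The intervals at Tyro3 (324 bp), Srr (363 bp) and Retreg3 (364 bp) covered a TSS of these genes, and the one near Plekhh3 (89 bp) lay 589 bp from one. The overlap of all 9 with H3K4me3 stands beside 90.3% of HA-Tex10 intervals at a coding TSS. The share among HA-Tex10 intervals farther from a TSS is not given here. No HA-Tex10 interval lay within 100 kb of Myc, Mycn, Mycl, Max or Mxd1. The 4 of 9 members with one (44.4%) stand beside 39.1% of all coding genes.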
